A study of Rattus norvegicus with 12 samples.

Results

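The genes described here are 10 markers of the neuronal cytoskeleton and of neuronal identity, out of 15154 named rat genes on the array. They are the neurofilament genes Nefl, Nefm and Nefh, the microtubule genes Tubb3, Map2, Mapt and Stmn2, the growth cone gene Gap43, and the identity genes Eno2 and Rbfox3. The list of genes was chosen by name and each gene is represented by the brightest of the non-control probes that its RefSeq entry names, as the mean over all arrays. All 10 genes had such a probe, and every one of the 10 was well above background on all 12 arrays.

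The RNA came from primary hippocampal cultures of Wistar rat embryos labelled as embryonic day 18, grown for 14 to 15 days. OGD cultures spent 2 h without oxygen and glucose (oxygen-glucose deprivation, an in vitro model of ischemia) and were then returned to conditioned medium for 7 h or 24 h, while Ctrl cultures spent the same time in a glucose-containing buffer in air. Each of the 4 groups, Ctrl and OGD at 7 h and at 24 h, had 3 arrays. Independent cultures served as the replicates, and the sources do not say whether a replicate number is the same culture in every group. The cultures are mixed: the study's methods describe them as mostly neurons with a minority of glial cells. The question asked of these genes is how far their RNA fell after OGD, since all of them are used to recognise neurons.

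Neurofilaments are the intermediate filaments of axons and are assembled from light (Nefl), medium (Nefm) and heavy (Nefh) chains. Microtubules run along axons and dendrites. Tubb3 encodes the tubulin isotype typical of neurons, Map2 a microtubule-associated protein of dendrites, Mapt the axonal protein tau, and Stmn2 a protein of the stathmin family that destabilises microtubules in growing neurites. Gap43 is a membrane protein of growth cones. Eno2, the neuronal enolase, is an enzyme of glycolysis, and Rbfox3 encodes the splicing factor known as the antigen NeuN. Because all these RNAs are made in neurons, their shares of total RNA drop when neurons are lost and also when living neurons make less of them. In a mixed culture, fewer neurons and less of the RNA per neuron cannot be told apart.

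The values are log2 fluorescence intensities minus the median of the array, so 0 is the level of the middle probe of that array. Equal amounts of RNA were labelled, so the values report shares of the RNA and not amounts per dish. The median intensity of the arrays ran from 447 to 660 units in Ctrl and from 234 to 426 in OGD at 7 h, and from 402 to 477 and from 131 to 546 at 24 h. The OGD 24 h array of replicate 1 stood apart, with the lowest median intensity (131) and a median difference of 0.56 from the other arrays of its group over the probes well above background, against 0.11 to 0.44 for the other 11 arrays. Its level of the 10 genes was lower by a median of −0.73 than on the other OGD 24 h arrays. The 24 h changes of the 10 genes are therefore also given without it. Each of the 6 slides held the Ctrl and the OGD array of one replicate number and time, and the differences of the 10 genes are also shown within slides. The 7 h slides were scanned on a different day from the 24 h slides. Within the slides of replicates 1 and 2 at 7 h and of replicate 1 at 24 h, the Ctrl array was scanned 211, 211 and 177 minutes after the OGD array. On these slides OGD and scan time cannot be told apart.

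At 7 h the 10 genes did not move together. Eno2 fell, with an unadjusted p under 0.05 (the threshold used here for calling a gene lower or higher), and the changes of the other 9 genes did not pass this threshold. On all 3 slides Nefl, Nefm, Nefh, Rbfox3 and Eno2 were lower after OGD, while Map2, Mapt, Stmn2 and Gap43 were higher on all 3. Of the latter, Mapt, Stmn2 and Gap43 were saturated on 2 of the 3 Ctrl arrays at 7 h, a limit described below. The other Mapt probe, saturated on no array, was lower on all 3 slides, and a dimmer Stmn2 probe was lower on 2. At 7 h 6 of the 10 changes were below 0 (59.9% of all named genes were), and at 24 h all 10 were (53.5%), of which 4 (Map2, Nefl, Nefh and Eno2) passed p under 0.05. Of all 30367 probes, 7.03% were lower at p under 0.05 at 7 h and 6.19% at 24 h. After Benjamini-Hochberg adjustment over all probes in limma, 0 of the 10 genes and 0 of all probes passed 0.05 at either time, and the adjusted p of the 10 genes lay between 0.254 and 0.959 at 7 h and between 0.262 and 0.674 at 24 h. The median change of the 10 genes was −0.27 at 7 h and −0.58 at 24 h, beside −0.06 and 0.01 over all probes. Leaving out Mapt, Stmn2 and Gap43, each saturated on some arrays, the medians of the other 7 genes were −0.50 and −0.62. Of these 7 genes, 6 had changes below 0 at 7 h and 7 at 24 h. Within slides, the median of the 10 genes was −0.56, −0.05 and −0.09 on the slides of replicates 1, 2 and 3 at 7 h, and −1.20, −0.27 and −0.06 at 24 h. The slide of replicate 1 was the lowest at both times, and on it the array median of OGD was also furthest below that of Ctrl, by −1.28 at 7 h and −1.32 at 24 h on the log2 scale (−0.25 and −0.39 on the other 7 h slides, −0.32 and 0.18 on the other 24 h slides). The part of this array difference in the result was not tested. Without the OGD 24 h array of replicate 1 the median at 24 h was −0.28 and Eno2 was the 1 gene that passed p under 0.05. The count at 24 h was also 1 without the Ctrl 24 h array of replicate 1 or 2, and 2 without any 1 of the Ctrl 7 h arrays or the OGD 7 h array of replicate 2. The count at 7 h was 4, 3 and 2 without the OGD 24 h arrays of replicates 1, 2 and 3, which enter the shared estimate of the spread, and 2 without the OGD 7 h array of replicate 2.

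**Figure D1:**
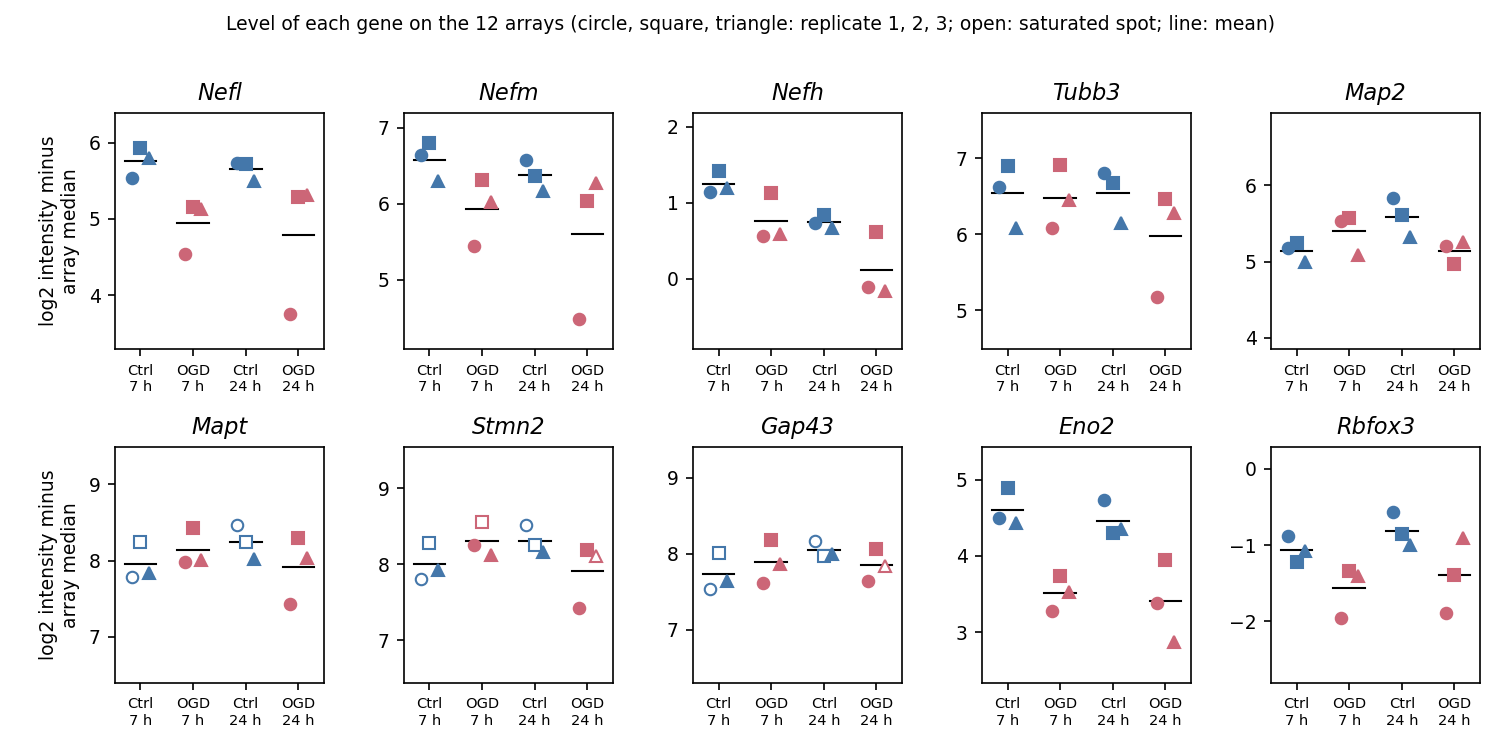
Level of the 10 genes on each array, as log2 intensity minus the array median (y axis, each panel spanning the same height), by group (x axis). Symbols are the 3 replicates, open symbols are saturated spots and lines are group means. All OGD points of Eno2 lie below all Ctrl points at both times, while those of Mapt, Stmn2 and Gap43 mingle with the Ctrl points.

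Saturation limited 3 of the 10 genes. A saturated spot has reached the top of the scanner's range and gives only a lower bound of the level. The spot of Mapt was saturated on 4 arrays (2 Ctrl arrays at 7 h and 2 at 24 h), that of Stmn2 on 6 (2 Ctrl and 1 OGD array at each time) and that of Gap43 on 5 (2 Ctrl arrays at 7 h, 2 Ctrl arrays and 1 OGD array at 24 h). No gene was saturated on all arrays of a group. On the arrays of Mapt without saturation the intensity still reached 62309 units, beside 65144 to 66997 on the saturated arrays. Median centring moves such spots: the 188 probes that were saturated on all 12 arrays appeared higher after OGD by a median of 0.64 at 7 h and 0.49 at 24 h, the size by which the array medians of OGD lay below those of Ctrl (−0.64 and −0.49). The changes of the saturated genes below carry this limit.

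Among the neurofilament genes, Nefl and Nefh were below every Ctrl array on every OGD array at both times. Nefl, the light chain, had levels of 5.53, 5.92 and 5.80 on the Ctrl arrays of replicates 1, 2 and 3 at 7 h and 4.54, 5.15 and 5.13 on the OGD arrays. The groups did not overlap, and the change was −0.81 ± 0.38 (SE of the limma fit, adjusted p = 0.431). At 24 h Nefl was at 5.74, 5.73 and 5.49 in Ctrl and at 3.76, 5.28 and 5.32 in OGD. It fell by 0.87 on the log2 scale (SE 0.38, adjusted p = 0.351), a ratio of 1.82, and the OGD array of replicate 1 was far below the other two. Without that array the change at 24 h was −0.35 and no longer passed, and the call at 24 h held under 13 of 27 alternative settings.

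Nefh, the heavy chain, was below Ctrl within each of the 6 slides. Its levels at 7 h were 1.14, 1.42 and 1.19 in Ctrl and 0.56, 1.13 and 0.59 in OGD, a change of −0.49 ± 0.24 (adjusted p = 0.460). At 24 h they were 0.73, 0.83 and 0.67 in Ctrl and −0.10, 0.62 and −0.16 in OGD, and Nefh fell by 0.62 (SE 0.24, adjusted p = 0.317). Here replicates 1 and 3 gave the same difference within the slide, −0.83, and replicate 2 a smaller one, −0.21. Without the OGD 24 h array of replicate 1 the change was −0.52 and did not pass, and the call held under 17 of 27 settings.

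Nefm, the medium chain, was read from 10 spots. It was lower on all 3 slides at 7 h, with 6.64, 6.80 and 6.29 in Ctrl and 5.45, 6.31 and 6.02 in OGD, and the ranges overlapped by the OGD array of replicate 2. At 24 h its levels were 6.57, 6.37 and 6.17 in Ctrl and 4.49, 6.04 and 6.27 in OGD. The low value of replicate 1 set the mean change of −0.77 ± 0.42 (adjusted p = 0.430), which was −0.22 without that array. At 7 h the change was −0.65 ± 0.42 (adjusted p = 0.545).

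Every OGD array lay below every Ctrl array at both times for 3 of the 10 genes, Nefl, Nefh and Eno2. At 7 h Nefl, Nefh, Rbfox3 and Eno2 had this separation (4 of 10, where 15.5% of all probes had it), and at 24 h Map2, Nefl, Nefh and Eno2 (4 of 10, where 7.02% had it). Lower on all 3 slides were 5 of 10 genes at each time, beside 23.6% of all probes at 7 h and 12.1% at 24 h.

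**Figure D2:**
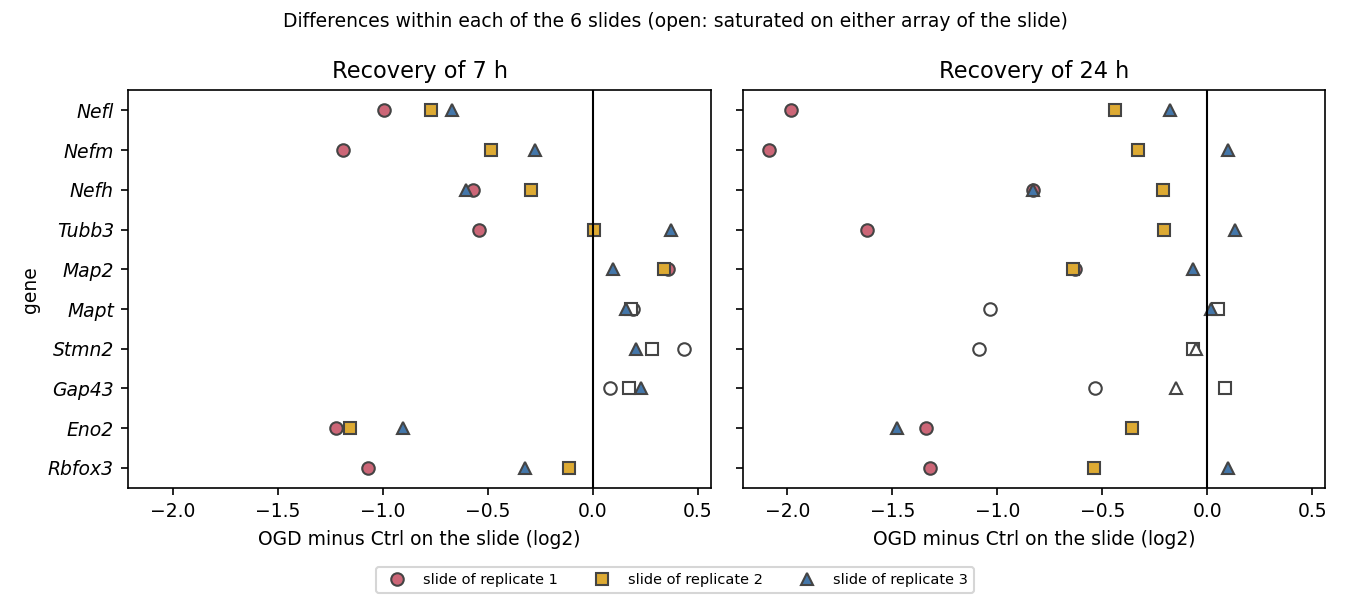
Difference between the OGD and the Ctrl array of each slide (x axis, log2) for each gene (y axis), at 7 h and at 24 h. Symbols and colours mark the slides of replicates 1, 2 and 3 and open symbols a saturated spot on either array. At 24 h the slide of replicate 1 gives differences of −0.54 to −2.09, while on the slide of replicate 3 the genes other than Nefh and Eno2 lie between −0.18 and 0.13.

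Of the microtubule genes, Tubb3 did not pass the threshold at either time. Its levels were 6.62, 6.90 and 6.08 in Ctrl and 6.08, 6.91 and 6.45 in OGD at 7 h, so that the groups covered nearly the same range, and the change was −0.05 ± 0.37 with an interval (95%) from −0.87 to 0.77. At 24 h they were 6.80, 6.67 and 6.14 in Ctrl and 5.18, 6.47 and 6.28 in OGD. Replicate 1 was again the low array: the slides gave −1.62, −0.21 and 0.13, the mean change was −0.56 ± 0.37 (adjusted p = 0.504) and without that array it was −0.17.

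Map2 had values of opposite sign at the 2 times, of which that at 24 h passed. At 7 h its levels were 5.18, 5.24 and 5.00 in Ctrl and 5.54, 5.58 and 5.09 in OGD. All 3 slides gave a higher value after OGD (0.36, 0.34 and 0.09), and the change of 0.26 ± 0.20 did not pass (adjusted p = 0.621). At 24 h the levels were 5.83, 5.61 and 5.32 in Ctrl and 5.20, 4.97 and 5.25 in OGD, every OGD array below every Ctrl array. Map2 fell by 0.45 at 24 h (SE 0.20, adjusted p = 0.364), and the slides gave −0.63, −0.64 and −0.07. Unlike for Nefl and Nefm, the OGD array of replicate 1 was not the lowest of its group, and without it the change was −0.48 and just missed the threshold. The call passed under 8 of 27 alternative settings. The Ctrl cultures differed as well, Map2 being higher at 24 h than at 7 h by 0.45 ± 0.20 (adjusted p = 0.337, where 5.65% of all probes were higher at p under 0.05), a comparison in which recovery time and scan day cannot be told apart.

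Mapt, the gene of tau, gave different answers on its 2 probes. The brighter probe, saturated on 4 Ctrl arrays, read 7.79, 8.24 and 7.84 in Ctrl and 7.98, 8.42 and 8.00 in OGD at 7 h (0.18 ± 0.26, adjusted p = 0.820), and 8.46, 8.25 and 8.01 in Ctrl and 7.43, 8.30 and 8.03 in OGD at 24 h (−0.32 ± 0.26, adjusted p = 0.571, and −0.08 without the OGD array of replicate 1). The other probe was saturated on no array. It read 7.43, 7.90 and 7.65 in Ctrl and 6.60, 7.63 and 7.05 in OGD at 7 h, lower on all 3 slides, with a change of −0.57 ± 0.29 (adjusted p = 0.469). At 24 h it read 8.03, 7.76 and 7.35 in Ctrl and 6.66, 7.12 and 7.11 in OGD. Every OGD array was below every Ctrl array, and this probe fell by 0.75 (SE 0.29, adjusted p = 0.315). Without the OGD array of replicate 1 its change was −0.60 and did not pass.

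Stmn2 had values of opposite sign at the 2 times, neither past the threshold. Its levels at 7 h were 7.81, 8.28 and 7.92 in Ctrl and 8.25, 8.56 and 8.12 in OGD, higher on all 3 slides, with a change of 0.31 ± 0.24 (adjusted p = 0.633). At 24 h they were 8.51, 8.26 and 8.17 in Ctrl and 7.43, 8.19 and 8.11 in OGD, lower on all 3 slides, with a change of −0.40 ± 0.24 (adjusted p = 0.467). Replicates 2 and 3 differed from their controls by only −0.07 and −0.05, and without the OGD array of replicate 1 the change was −0.16. A dimmer Stmn2 probe, saturated on 2 arrays, changed by −0.23 ± 0.42 at 7 h and −0.73 ± 0.42 at 24 h (adjusted p = 0.851 and 0.453, and −0.20 at 24 h without that array), so the sign at 7 h depended on the probe here too.

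Gap43 had the smallest change of the 10 genes at 24 h. It read 7.54, 8.01 and 7.64 in Ctrl and 7.61, 8.18 and 7.87 in OGD at 7 h, a change of 0.16 ± 0.21 (adjusted p = 0.795). At 24 h it read 8.17, 7.98 and 7.99 in Ctrl and 7.64, 8.06 and 7.84 in OGD, a change of −0.20 ± 0.21 (adjusted p = 0.674) with an interval (95%) from −0.66 to 0.26. Without the OGD array of replicate 1 it was −0.10. Its single probe was saturated on 2 of 3 Ctrl arrays at each time.

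Eno2 changed most of the 10 genes, and by about the same amount at both times. At 7 h its levels were 4.50, 4.89 and 4.43 in Ctrl and 3.28, 3.74 and 3.53 in OGD. Every slide gave a difference near 1 log2 unit (−1.22, −1.16 and −0.91). Eno2 fell by 1.095 (SE 0.27, adjusted p = 0.254), a ratio of 2.14. At 24 h the levels were 4.73, 4.30 and 4.35 in Ctrl and 3.39, 3.94 and 2.88 in OGD, and Eno2 fell by 1.06 (SE 0.27, adjusted p = 0.262), a ratio of 2.08. Here the slides varied more (−1.34, −0.36 and −1.48) and the lowest OGD array was that of replicate 3. Without the OGD array of replicate 1 the change was −1.05. Of 27 alternative settings, 26 kept p under 0.05 at each time. Eno2 was the 1 gene of the 10 that passed p under 0.05 with a fold of 2, at both times, beside 1.66% of all probes at 7 h and 1.96% at 24 h in this direction.

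Rbfox3 lay below the array median on every array. At 7 h it read −0.88, −1.23 and −1.08 in Ctrl and −1.95, −1.34 and −1.41 in OGD, every OGD array below every Ctrl array, with a change of −0.50 ± 0.27 (adjusted p = 0.489). At 24 h it read −0.57, −0.86 and −1.01 in Ctrl and −1.89, −1.39 and −0.91 in OGD. The OGD array of replicate 3 lay within the Ctrl range, and the change was −0.59 ± 0.27 (adjusted p = 0.369). Without the OGD array of replicate 1 it was −0.34.

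Upstream sequence was at hand for 3 of the 10 genes, and 2 are shown because they contrast: Eno2 fell at both times and Tubb3 passed at neither. The sequences are the 250 bases before the RefSeq start on the gene's strand, 5′ to 3′, in build GRCr8, Eno2 at chr4:159267221-159267470 on the minus strand and Tubb3 at chr19:68365437-68365686 on the plus strand. Capitals mark the GC box GGGCGG on either strand, the motif bound by SP1-type factors.
Eno2: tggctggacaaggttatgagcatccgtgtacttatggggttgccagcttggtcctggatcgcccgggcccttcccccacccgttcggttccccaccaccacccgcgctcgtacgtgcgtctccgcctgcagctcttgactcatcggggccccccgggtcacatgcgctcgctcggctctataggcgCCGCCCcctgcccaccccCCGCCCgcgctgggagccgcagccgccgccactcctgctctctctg
Tubb3: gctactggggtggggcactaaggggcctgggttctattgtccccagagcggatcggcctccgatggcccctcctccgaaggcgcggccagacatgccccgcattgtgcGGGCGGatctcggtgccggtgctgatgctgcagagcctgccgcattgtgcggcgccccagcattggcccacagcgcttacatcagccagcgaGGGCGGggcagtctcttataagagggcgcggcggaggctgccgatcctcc
Both windows held 2 GC boxes, and 30.5% of the 33469 promoter windows of this length held at least 1. The G and C content was 69.6% for Eno2 and 68% for Tubb3. Map2 was the third gene, with 32% G and C and no GC box in its window. The letters TATAAA or TGACG or CAGGTG (12.9%, 18.2% and 15.9% of all windows, both strands) were found in none of the 3 windows.

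The response differed between the times for 1 of the 10 genes at p under 0.05, where 3.58% of all probes did. The change of Map2 at 24 h was lower than that at 7 h by −0.71 ± 0.29 (adjusted p = 1.00). The difference for Stmn2 was of the same size, −0.71 ± 0.34 (adjusted p = 1.00), with 2 or 1 saturated arrays in every group. For Eno2 it was 0.04 ± 0.39, and for Nefl −0.05 ± 0.53. By mean level, the OGD 24 h group was the lowest of the 4 groups for 7 of the 10 genes and a Ctrl group the highest for all 10. These orders hold 30 pairs of neighbours, of which 17 share a time or a condition and were tested. The Ctrl and OGD groups of Nefh at 24 h were the 1 pair that differed at p under 0.05. Between the times within a condition, the OGD groups of Nefh differed (−0.64 from 7 h to 24 h, adjusted p = 0.226) and the Ctrl groups of Map2, and no other gene of the 10 passed.

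Relatives of the 10 genes, which other cells also make, were set beside them. None of the 10 measured relatives passed p under 0.05 at 7 h, and Tubb6 and Nes passed at 24 h, both higher. Vim, the intermediate filament gene of astrocytes and fibroblasts, changed by 0.37 ± 0.56 at 7 h and 0.97 ± 0.56 at 24 h (adjusted p = 0.453), higher on all 3 slides each time, while Nefl and Nefm had changes below 0. Nes, the nestin gene of progenitors and reactive astrocytes, changed by 0.29 ± 0.29 at 7 h and rose by 0.75 ± 0.29 at 24 h (adjusted p = 0.314). Tubb6, a tubulin with little expression in neurons, changed by 0.78 ± 0.40 at 7 h and rose by 1.09 ± 0.40 at 24 h (adjusted p = 0.309). Its slides at 24 h gave 2.68, 0.60 and −0.03, and without the OGD 24 h array or the Ctrl 24 h array of replicate 1 neither Tubb6 nor Nes passed. Without the OGD 24 h array of replicate 1, whose spread enters the fit of both times, 3 relatives were higher at 7 h, Tubb6 and the saturated Tubb5 and Tubb4b. The other tubulins, Tubb5 and Tubb4b, were saturated on 10 of 12 arrays each and give no reading. Probe sequences are not used here, so cross-hybridisation among tubulin genes was not tested.

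Map4, a microtubule-associated protein that other cells also make, changed by −0.19 ± 0.24 at 7 h and −0.42 ± 0.24 at 24 h, beside 0.26 and −0.45 for Map2. The slides of Map4 at 24 h gave −1.06, −0.48 and 0.28. Stmn1 changed by −0.40 ± 0.31 at 7 h and −0.46 ± 0.31 at 24 h, beside 0.31 and −0.40 for Stmn2, which was saturated on 6 arrays. The slides of Stmn1 at 24 h gave −1.36, 0.08 and −0.08. For the enolases the values lay apart: Eno3 changed by 0.38 ± 0.34 at 7 h and −0.06 ± 0.34 at 24 h, while Eno2 fell at both times, and Eno1 was saturated on 8 arrays. Rbfox2 changed by 0.24 ± 0.24 and −0.07 ± 0.24, beside −0.50 and −0.59 for Rbfox3. The differences between each gene and its relative were not tested.

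**Figure D3:**
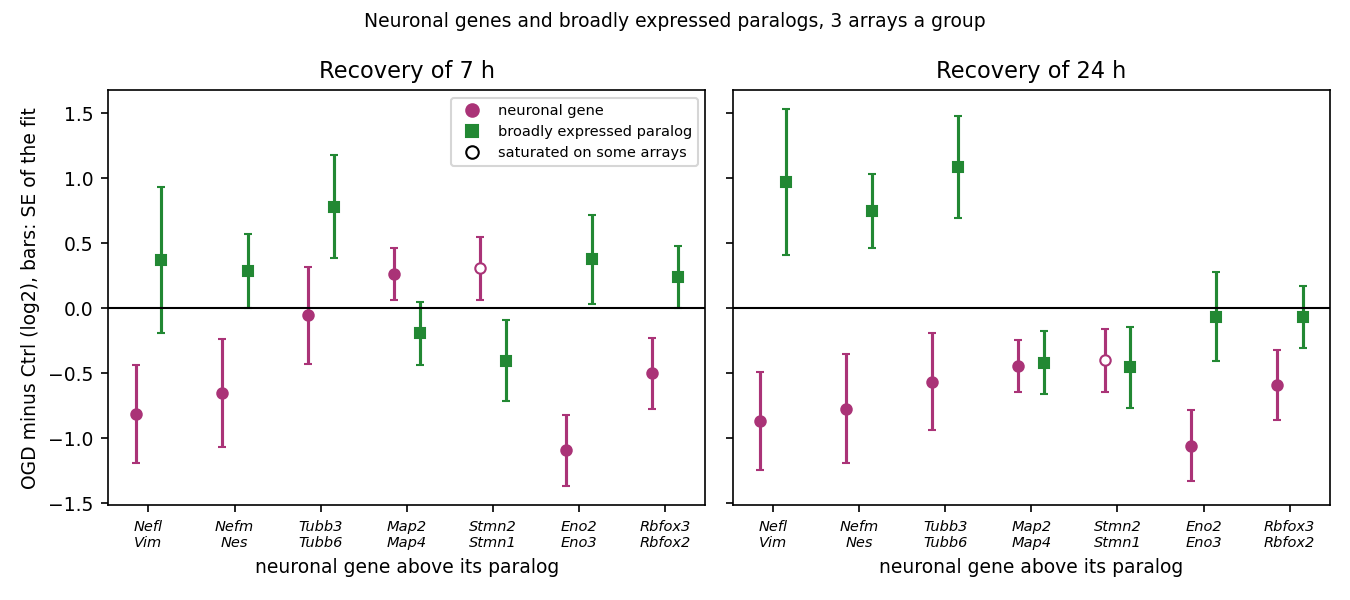
Change after OGD (y axis, log2, OGD minus Ctrl, bars: SE of the fit over 3 arrays a group) of 7 neuronal genes and of a relative of each that other cells also make (x axis), at 7 h and at 24 h. Open symbols are genes saturated on some arrays. At 24 h Vim, Nes and Tubb6 lie between 0.75 and 1.09 and the neuronal genes beside them between −0.87 and −0.56.

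Other neuronal genes had more calls of lower level at 24 h than at 7 h when all arrays were used, and for the identity genes this order depended on 1 array. A list of 30 further genes of the neuronal cytoskeleton had 25 with a probe. At p under 0.05, 1 of the 25 fell and 3 rose at 7 h, while 12 fell and 0 rose at 24 h, with medians of −0.30 and −0.54. A list of 26 genes of neuronal identity had 21 with a probe, of which 2 fell and 1 rose at 7 h while 11 fell and 0 rose at 24 h, with medians of −0.11 and −0.66. Of all probes, 4.79% were higher at p under 0.05 at 7 h and 7.51% at 24 h. Leaving out the genes saturated on any array gave 12 of 21 and 9 of 18 lower at 24 h. The counts at 24 h fell to 6 and 3 without the OGD array of replicate 1, where those at 7 h rose to 4 and 5, so that more identity genes were then lower at 7 h than at 24 h. They fell to 4 and 4 without the Ctrl 24 h array of replicate 1 and to 6 and 5 without that of replicate 2. Scaling to spike-in probes left 1 and 3 genes lower at 24 h, the 75th percentile 10 and 7, and replicates 2 and 3 alone 4 and 5. None of the genes passed after adjustment in limma. Of the 46 measured genes of both lists, 25 were lower on all 3 slides at 24 h, where 12.1% of all probes were. They hold 20 of the 23 genes called lower at 24 h, which were picked on the same arrays. At 7 h, leaving out each array in turn gave 0 to 4 lower and 1 to 6 higher cytoskeleton genes and 0 to 5 lower and 0 to 2 higher identity genes. The 6 higher cytoskeleton genes, without the OGD 24 h array of replicate 1, included all 4 genes of that list saturated on any array. With all arrays in use and those 4 genes left out, 2 cytoskeleton genes were higher and 1 was lower at 7 h. The difference between the times passed p under 0.05 for 6 of the 46 genes of both lists.

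Add2, the beta subunit of adducin in the membrane skeleton, moved up at 7 h and down at 24 h. At 7 h it read 3.92, 4.02 and 3.86 in Ctrl and 4.52, 4.53 and 4.29 in OGD, all OGD arrays above all Ctrl arrays, and it rose by 0.52 ± 0.16 (adjusted p = 0.276). At 24 h it read 4.81, 4.62 and 4.56 in Ctrl and 3.87, 3.74 and 3.77 in OGD, and it fell by 0.87 (SE 0.16, adjusted p = 0.238). The difference between the times was −1.39 (adjusted p = 1.00), and Add2 passed at both times with any of the 12 arrays left out. Stmn4, a neuronal relative of Stmn2 that was saturated on no array, fell by 0.63 at 7 h and by 0.96 at 24 h (SE 0.24, adjusted p = 0.354 and 0.254), with no slide going the other way. Its call at 24 h held with any of the 12 arrays left out and that at 7 h with 8 of them. The 24 h arrays enter the call at 7 h only through the estimate of the spread. Of the 7 h arrays, that call held only without the Ctrl array of replicate 3 or the OGD array of replicate 2. Kif3c, a kinesin motor, Dpysl5, of the collapsin response mediator family, and Dclk1, the doublecortin-like kinase, had the largest calls of this list at 24 h, with −1.04, −1.02 and −1.01 (SE 0.40, 0.46 and 0.40). The slide of replicate 1 gave −2.28, −1.98 and −2.18, and without its OGD array the changes were −0.49, −0.57 and −0.59 and did not pass. Basp1, a growth cone protein like Gap43, passed at 7 h with a positive value but was saturated on 11 of 12 arrays.

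Among the identity genes, the transcription factors of excitatory forebrain neurons Neurod6 and Neurod2 and the surface protein Thy1 had the largest calls at 24 h. Neurod6 fell by 1.58 (SE 0.60, adjusted p = 0.315), Neurod2 by 1.47 (SE 0.40, adjusted p = 0.267) and Thy1 by 1.35 (SE 0.47, adjusted p = 0.296). The slide of replicate 1 gave −3.65, −2.89 and −2.84, and the other slides between −0.89 and −0.26. Without the OGD array of replicate 1 the changes were −0.72, −0.91 and −0.71, and Neurod6 no longer passed. For Neurod2 the levels at 24 h were 4.95, 4.77 and 4.26 in Ctrl and 2.07, 3.88 and 3.62 in OGD, without overlap, and at 7 h the change was −0.07 ± 0.40. L1cam, an adhesion protein of axons, was lower at both times, by −0.86 ± 0.36 at 7 h (adjusted p = 0.393) and −1.09 ± 0.36 at 24 h (adjusted p = 0.290). These calls held with 8 and 11 of the 12 arrays left out in turn, and neither held with the OGD array of replicate 1 of its own time left out (−0.58 and −0.79). Of the 7 h arrays, the call of L1cam at 7 h held only without the Ctrl array of replicate 1 or the OGD array of replicate 2. Of the pan-neuronal RNA-binding proteins, Elavl3 fell by 0.53 at 24 h (SE 0.23, adjusted p = 0.349), a call that held with 4 of the 12 arrays left out in turn, and Elavl4 changed by −0.37 ± 0.29. Tbr1 passed at 7 h but was not well above background on any array at that time, and Uchl1, which passed at 7 h with a positive value, was saturated on 10 arrays.

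**Figure D4:**
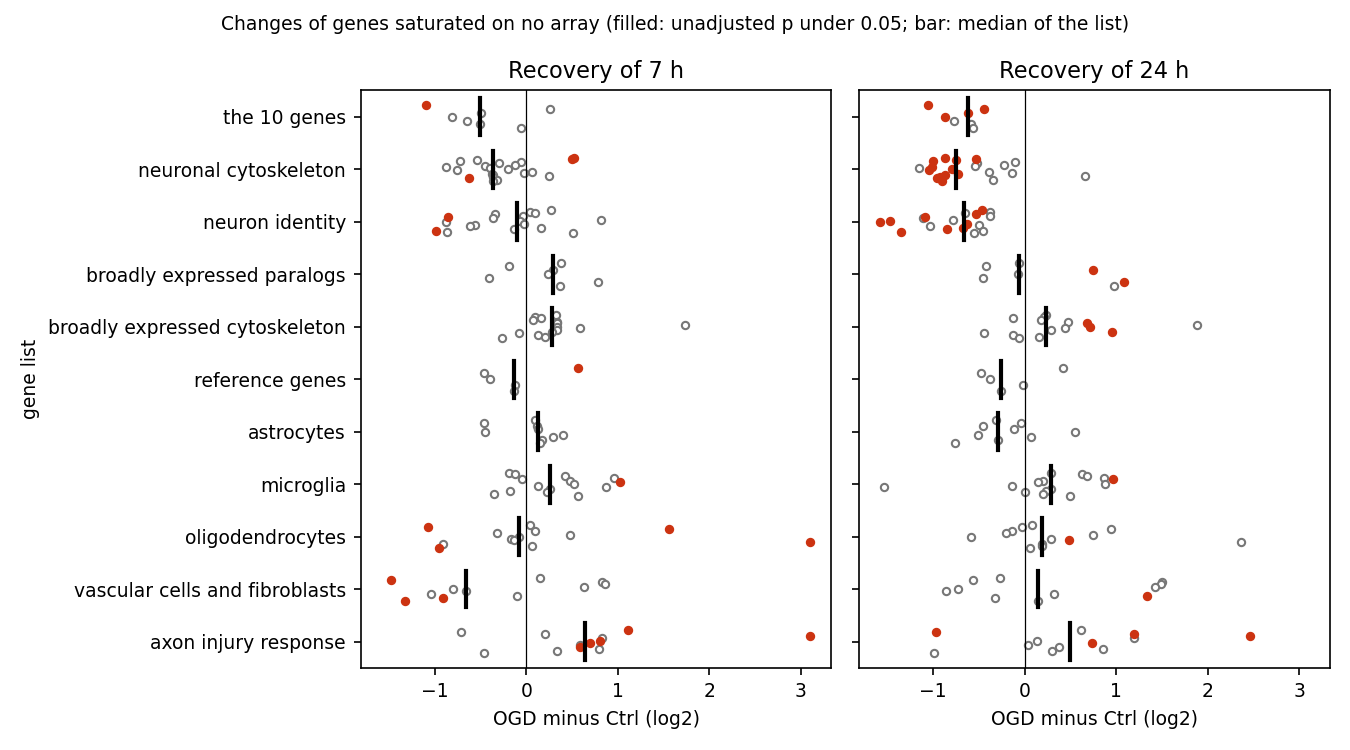
Change after OGD (x axis, log2, OGD minus Ctrl) of each gene of 11 lists (y axis) at 7 h and at 24 h, without genes saturated on any array. Filled points have an unadjusted p under 0.05 and bars are list medians. At 24 h the 3 neuronal lists at the top have medians between −0.75 and −0.62, while at 7 h both directions occur among the neuronal cytoskeleton genes.

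The markers of other cells that the cultures could hold were measured on the same arrays. Of 13 astrocyte genes with a probe, 2 passed at 7 h, both higher (Slc1a3 and Aldoc, saturated on 5 and 11 arrays), and 0 passed at 24 h in either direction, where the median was −0.12. With an array left out, 0 to 3 were higher at 7 h, and 2 were lower at 24 h without the OGD array of replicate 3. Leaving out the genes saturated on any array gave astrocyte medians of 0.13 at 7 h and −0.29 at 24 h. Then 2 of 9 changes were below 0 at 7 h (59.9% of all named genes) and 7 of 9 at 24 h (53.5%). The filament gene Gfap changed by 0.11 ± 0.45 and −0.45 ± 0.45 and the water channel gene Aqp4 by 0.09 ± 0.47 and −0.55 ± 0.47, and both were well above background on every array. The summed level of the astrocyte list (log2) ran from 10.24 to 10.48 in Ctrl and from 10.6 to 11.0 in OGD at 7 h, and from 10.4 to 10.6 and from 10.6 to 10.7 at 24 h, sums that hold the saturated genes. Of 15 microglial genes, 1 was higher at each time, the chemokine receptor Cx3cr1 at 7 h (1.02 ± 0.27, adjusted p = 0.263) and the lysosomal protein Cd68 at 24 h (0.96 ± 0.39, adjusted p = 0.332), and 13 of the 15 had a change above 0 at 24 h. Cd68 changed by 0.55 and did not pass without the OGD 24 h array of replicate 1, while Cx3cr1 passed with any array left out. The defining marker Aif1 changed by −0.19 ± 0.21 and 0.29 ± 0.21, and Itgam was well above background on only 3 of 12 arrays. The summed microglial level ran from 5.68 to 6.16 in Ctrl and 5.98 to 6.24 in OGD at 7 h, and from 5.96 to 6.23 and 6.05 to 6.66 at 24 h. The part of the other cell types in the changes of the 10 genes was not tested.

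Of 13 oligodendrocyte genes, 2 fell and 2 rose at 7 h, whereas 1 rose at 24 h. Without the OGD 7 h array of replicate 1, 0 fell and 0 rose at 7 h. Cspg4, of the precursor cells, fell by 1.07 at 7 h (SE 0.37, adjusted p = 0.322), with slide differences of −2.14, −1.12 and 0.04, and changed by −0.59 without that array. Ermn, a cytoskeletal gene of oligodendrocytes, rose by 1.56 ± 0.60 at 7 h (adjusted p = 0.355), was well above background on 6 of 12 arrays and had slide differences of 3.36, 1.82 and −0.50. Opalin, of mature oligodendrocytes, changed by 3.10 ± 1.13 at 7 h, and its 3 OGD arrays spread from 0.88 to 4.88, above Ctrl values of −0.48 to −0.15, and it changed by 2.04 without the OGD array of replicate 1. Olig2 rose by 0.48 at 24 h (SE 0.20, adjusted p = 0.344), a call that held with 6 of the 12 arrays left out in turn, and Mbp changed by −0.32 ± 0.87 and −0.21 ± 0.87. Of 11 genes of vascular cells and fibroblasts, 3 were lower at 7 h (Cldn5, Rgs5 and Pecam1, all of them not well above background on at least 2 of the OGD arrays) and 1 was higher at 24 h, the pericyte receptor Pdgfrb (1.34 ± 0.38, adjusted p = 0.269), which passed with any array left out. Without the OGD 7 h array of replicate 1, 1 of these 11 genes was lower at 7 h.

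None of the measured genes of the general cytoskeleton or of those used as references was lower at p under 0.05 with all arrays in use, whereas 1 and 2 of them were lower at 24 h without the OGD array of replicate 3. Of 18 broadly expressed cytoskeleton genes, 0 passed in either direction at 7 h and 3 were higher at 24 h: the integrin adaptor Tln1 (0.95 ± 0.26, adjusted p = 0.263), Msn, which links actin to the membrane (0.71 ± 0.31, adjusted p = 0.354), and the nuclear lamin Lmna (0.68 ± 0.24, adjusted p = 0.298). Without the OGD 24 h array of replicate 1 their changes were 0.71, 0.34 and 0.38, and Msn did not pass. The count at 24 h ran from 2 to 7 with an array left out, 7 without the OGD array of replicate 3, and that at 7 h reached 5 without the OGD 24 h array of replicate 1. Of these 18 genes, 3 were saturated on some arrays. Of 11 reference genes, 2 were higher at 7 h, B2m (0.56 ± 0.22, adjusted p = 0.356) and Gapdh, and 0 passed at 24 h. The count of higher reference genes at 7 h ran from 0 to 7 with an array left out, 7 without the OGD 24 h array of replicate 1. Those 7 included all 6 reference genes that were saturated on any array. Of the other 5, 4 had changes below 0 at 7 h (59.9% of all named genes did), with a median of −0.14. Actb and Gapdh were saturated on 11 and 10 of 12 arrays, so neither gives a reading of a change here.

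The genes whose pattern over the 12 arrays was most like the median of the 10 genes were sought among 10625 genes that were well above background on every array and saturated on none, by the root mean square of the difference in log2 level after subtracting the Ctrl mean of the same time. They were Vdac2 (0.0939), a pore of the outer mitochondrial membrane, Slc11a2 (0.103), an iron transporter, Fbxo31 (0.118), Ift88 (0.124), a protein of ciliary transport, and Ctxn1 (0.126). Their changes at 24 h lay between −0.59 and −0.39. The same distance for the 10 genes themselves ran from 0.205 for Tubb3 to 0.598 for Eno2, the gene furthest from the median pattern.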

How the data were processed

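Total RNA of 12 samples (Ctrl and OGD at 7 h and 24 h, 3 each) was measured on one-color Agilent arrays with probes designed on rat build rn4. The deposited intensity of each spot (gProcessedSignal) was made by the authors with Feature Extraction 10.5.1.1, which subtracts background and corrects trends across the array. The authors also deposited log2 values centred on the median with BRB-ArrayTools 3.8.1. On each array they equal the log2 intensity less a fixed offset, to within 0.01 for nearly all probes. Between 78.3% and 87.1% of spots were well above background, and the number of arrays limits the precision.

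From the intensities, outlier spots were dropped, values were put on the log2 scale, replicate spots were merged by their mean, and every array was centred on its median. Of 30367 probes, 18004 were named through RefSeq tables. The 4 groups were fitted together in limma 3.58.1 (R 4.3.3) with empirical Bayes moderation, two-sided p-values and Benjamini-Hochberg adjustment over all probes. Called means an unadjusted p under 0.05. The study's methods used this p with a fold of 2, and counts with that fold are given too. The procedure was tested on simulated data with independent noise. These data held no outlying array, no shift between arrays and no saturation, so those limits were not tested. Figures were drawn from the resulting tables.

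The members, the lists and the tests were chosen with earlier results of these data known. Named besides the 10 genes are all measured paralogs, the markers Gfap, Aqp4, Aif1, Itgam, Olig2, Mbp, Elavl3, Elavl4, Actb and Gapdh, and from each other list the 3 largest changes at p under 0.05 at each time. Ank3 and Bcl11a were named after their values were seen. Alternatives were other scalings (75th percentile, quantile, spike-in), normexp on median foreground and background signals (a mean signal was not used), a floor of 10 units, leaving out dim probes, the authors' values, the methods' t-test, each time alone, slide and replicate blocks, unsaturated probes, the mean over probes, replicates 2 and 3 alone, and each array left out. Upstream sequences came from RefSeq (GRCr8).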

Additional observations from a re-analysis of the deposited data

Results flagged for a closer look

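The change of Map2 differed between the times, being lower at 24 h than at 7 h by −0.709 on the log2 scale (adjusted p = 1.00 in limma). All slides were above 0 at 7 h (0.36, 0.34 and 0.09) and below 0 after a day of recovery (−0.63, −0.64 and −0.07). For Stmn2 every slide also moved one way at 7 h (0.43, 0.28 and 0.20) and the other way later (−1.09, −0.07 and −0.05), and the difference of −0.709 did not pass in limma (adjusted p = 1.00). Its probe was saturated on 6 of 12 arrays. In both genes the slide of replicate 3 at 24 h was close to 0.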

How the results depend on the processing

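Every change of Nefl, Nefm, Nefh and Eno2 at both times, and of all 10 genes at 24 h except Mapt with replicates 2 and 3 alone (0.033), stayed below 0 under all alternatives run for it. At 7 h, genes lower at p under 0.05 were 1 in the reported setting, 0 with spike-in scaling, 2 with quantile normalization, normexp, a floor of 10, dim probes left out, the methods' t-test or replicates 2 and 3 alone, 3 with each time alone or the replicate block, and 1 to 4 with an array left out. At 24 h they were 4, with 0 under spike-in scaling, 1 under normexp, the methods' t-test, each time alone, replicates 2 and 3 alone or a fold of 2 required, and 1 to 4 with an array left out. After adjustment there were 0 at either time and 0 between the times. Genes differing between the times were 1, with 2 under the 75th percentile, 0 under spike-in scaling, normexp or replicates 2 and 3 alone, and 0 to 2 with an array left out. Spike-in scaling moved the medians to −1.04 and −1.60 and those of all probes to −0.82 and −1.02. Relative to all probes they were −0.22 and −0.59, as in the reported setting. That equality follows from the method, which shifts all probes of an array by 1 value, and is no check of the result. The sign turned for values that had not passed at 7 h: Tubb3 (0.058 with the 75th percentile, 0.19 with replicates 2 and 3 alone, −0.28 to 0.15 with an array left out, and 0.13 without Ctrl 7 h replicate 2), Mapt (−0.31 quantile, −0.59 spike-in, −0.46 normexp, −0.57 unsaturated probe, −0.20 mean over probes), Stmn2 (−0.21 quantile, −0.46 spike-in, −0.35 normexp), Gap43 (−0.088, −0.61 and −0.38), Map2 (−0.50 spike-in, −0.30 normexp) and Rbfox3 (0.10 normexp). The causes were not tested. Deviations of same-numbered arrays correlated by −0.01, 0.34 and 0.18 at 7 h and −0.13, 0.16 and −0.19 at 24 h. Those of differently numbered arrays correlated by −0.28 to 0.05 at 7 h and −0.24 to 0.27 at 24 h. The numbers were not taken as pairs, because the sources do not say that they mark the same culture. With the replicate block, 3 genes were lower at 7 h and 4 at 24 h, and with the replicate block by slide 1 and 3. Leaving out genes saturated on any array, chosen after seeing the data, removed both astrocyte calls at 7 h. Saturation limits Mapt, Stmn2 and Gap43.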

Other observations

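Genes that neurons switch on after axon injury, 14 listed and 12 with a probe, had more calls of higher than of lower level. At p under 0.05, 5 were higher and 0 lower at 7 h (median 0.64), and 3 were higher and 1 lower at 24 h (median 0.49). With an array left out in turn, 3 to 6 were higher at 7 h and 3 to 5 at 24 h, and 2 of the 12 had changes below 0 at each time. Galanin (Gal), a neuropeptide, read 3.01, 2.75 and 4.48 in Ctrl and 6.24, 6.63 and 6.68 in OGD at 7 h and rose by 3.10 ± 0.59 (adjusted p = 0.175). At 24 h it read 0.61, 1.58 and 1.50 in Ctrl and 4.94, 2.61 and 3.54 in OGD and rose by 2.47 ± 0.59 (adjusted p = 0.252). The groups did not overlap at either time, and Gal passed with any array left out. Atf3, a transcription factor of injured neurons, rose by 1.11 ± 0.35 at 7 h, and Jun by 0.80 ± 0.34, a call that held with 4 of the 12 arrays left out in turn. Gadd45a, a stress gene, changed by 0.21 ± 0.31 at 7 h and rose by 1.19 ± 0.31 at 24 h. Cacna2d1, a calcium channel subunit, fell by 0.97 at 24 h (SE 0.42, adjusted p = 0.352) and changed by −0.38 without the OGD array of replicate 1.

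Ank3, the ankyrin of the axon initial segment, had calls of opposite direction at the 2 times, like Add2. It rose by 0.50 at 7 h (adjusted p = 0.419) and fell by 0.53 at 24 h (adjusted p = 0.340), and the difference passed p under 0.05 (−1.03, adjusted p = 1.00). Its calls held with 3 and 8 of the 12 arrays left out in turn. Bcl11a, a transcription factor, changed by 0.27 at 7 h and fell by 0.47 at 24 h (difference −0.74, adjusted p = 1.00).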
